A study of Mus musculus with 12 samples.

Results

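The regions described here are those listed for MLL4 in a pair of cell lines from mouse pancreatic tumours, one labelled KDM6A-KO and one labelled KDM6A-WT, both female. All regions of both lists were taken, 13152 from the KO line and 2130 from the WT line, which makes 15282 of the 313566 regions in the 11 lists of the series. Cells received no treatment and were kept in F12/DMEM to which EGF was added. The cell type field of every sample, those with the WT genotype included, gives a K6A null tumour as the origin, so KO and WT are used as the genotype field has them. Each genotype is 1 line and 1 library for MLL4, so a difference between the lists cannot be told apart from a difference in depth, in the calling threshold or between the lines themselves, and no test between libraries was made. Histone mark lists of the same female lines (H3K4me1 in KO and WT; H3K4me3, H3K27ac and H3K27me3 in WT alone) and the H3K4me1 lists of a male KO and a male WT line served to describe the MLL4 regions. No expression values belong to the series, so the labelled cell type could not be checked against marker genes.

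MLL4, named KMT2D in the antibody field, is a methyltransferase that places methyl groups on lysine 4 of histone H3. It is best known for writing H3K4me1, the mark of enhancers, and it works in a complex that also holds KDM6A, a demethylase of the repressive mark H3K27me3. H3K4me3 marks promoters, and H3K27ac marks promoters and enhancers that are in use. The comparison of the MLL4 lists asks where the methyltransferase is found with and without its partner KDM6A.

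A region was called shared when it overlapped a region of the other line by at least 1 bp. In the WT list 603 regions were shared and 1527 were found in WT only, which is 71.7% of that list. In the KO list 627 were shared and 12525 were found in KO only, 95.2% of it. Brackets give exact Clopper-Pearson intervals at 95% for shares and binomial order-statistic intervals for medians. They treat regions as independent, cover counting error only and say nothing about the spread between libraries. Chromosomes 1, 6 and 17 held 6900 of the KO regions and chromosomes 15 and 19 held 867 of the WT regions, a surplus in the counts per chromosome. Values are therefore also given for the 15 other chromosomes, with 5703 KO and 1023 WT regions, where the KO list was still 5.57 times the longer (6.17 times over all chromosomes). What part the surplus has in any result beyond these values was not tested.

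The MLL4 regions found in both lines were mostly promoter regions. H3K4me3 overlapped 83.6% [80.4 to 86.5] of the shared WT regions and 83.9% [80.8 to 86.7] of the shared KO regions, and each of these regions with H3K4me3 also carried H3K27ac. Among regions of 1 line only the share with H3K4me3 was lower, at 37.0% of KO-only and 29.3% of WT-only regions. On the 15 other chromosomes it was 88.1% for shared WT regions, 50.6% [49.3 to 52.0] for KO-only and 45.5% [41.7 to 49.4] for WT-only regions, so the classes stood closer together there but kept their order. The order also held with every alternative tried. With the KO list cut to as many regions as the WT list the shares were 92.6% for shared WT, 62.9% for KO-only and 38.9% for WT-only regions. The surplus chromosomes alone were not among the alternatives. On chromosomes 1, 6 and 17 KO-only was not above WT-only, at 25.7% [24.6 to 26.7] of 6748 against 27.1% [18.5 to 37.1] of 96 regions. On chromosomes 15 and 19 the shares were 45.1% of KO-only and 15.4% of WT-only regions.

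**Figure D1:**
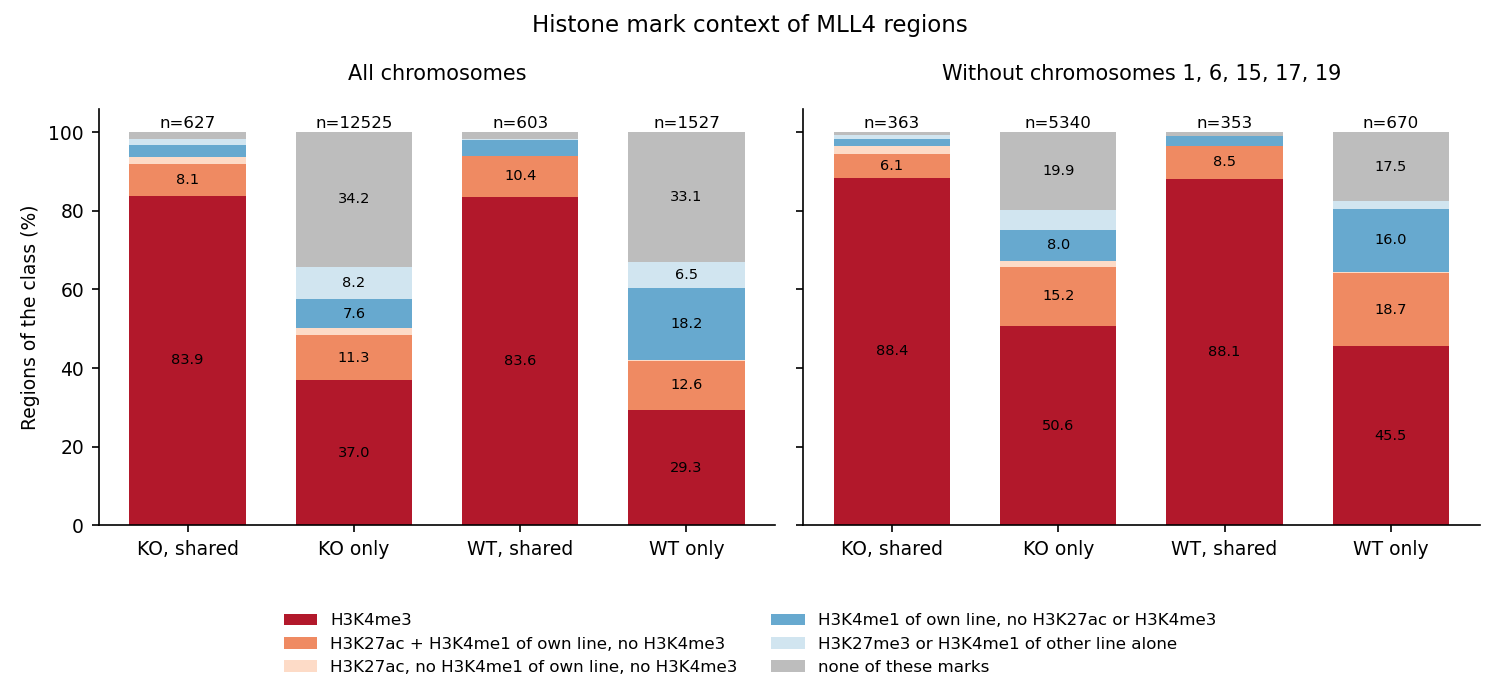
Share of MLL4 regions (y axis, percent of the class) by histone marks, in order of precedence from the bottom of each bar, for shared and line-specific regions of the KO and WT lists, with all chromosomes on the left and the 15 other chromosomes on the right. H3K4me3 takes 83.9% and 83.6% of the shared classes and 37.0% and 29.3% of the KO-only and WT-only classes.

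Read the other way, the marks at an MLL4 region went with how often the other line had it. Of the 952 WT regions with H3K4me3, 52.9% [49.7 to 56.2] were shared with KO. Distal active regions, defined by H3K27ac and by H3K4me1 of the same line in the absence of H3K4me3 and thus with the marks of enhancers, were shared in 24.7% [19.5 to 30.5] of 255 cases. Regions with H3K4me1 but neither H3K27ac nor H3K4me3 were shared in 7.95% [5.16 to 11.6] of 302 cases, and regions without any listed mark in 1.94% [0.933 to 3.54] of 516. The KO list had a similar ranking at a lower level, with 10.2% [9.38 to 11.1] of 5158 regions with H3K4me3, 3.47% [2.60 to 4.54] of 1469 distal active regions, 1.87% of 965 regions with H3K4me1 alone of these 3 marks and 0.233% [0.112 to 0.428] of 4290 regions without a mark shared with WT. The WT values were 50.5%, 19.4%, 7.76% and 2.50% on the 15 other chromosomes. Over all chromosomes, then, MLL4 regions without a mark rarely met one of the other line. On chromosomes 1, 6 and 17, where KO regions are dense, 12.9% [3.63 to 29.8] of 31 WT regions without a mark were shared. There 81.2% of the 138 WT regions with H3K4me3 were shared.

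The overlaps were also counted starting from the mark regions. Of the 24492 H3K4me3 regions of the WT line, 18.7% held an MLL4 region of KO and 3.80% one of WT. Among the 931 that held MLL4 of WT, 56.2% [52.9 to 59.4] also held MLL4 of KO, against 17.2% [16.7 to 17.7] of those without MLL4 of WT. MLL4 of KO was held by 11.4% of the H3K4me3 regions in the lowest and 30.3% in the highest of 5 classes of equal number by reads, with 14.4% in the fourth, below the second and the third. Within the classes the values were 37.2% against 10.9% in the lowest and 61.0% against 28.3% in the highest, and in all 5 the H3K4me3 regions with MLL4 of WT were the more often occupied in KO. For H3K27ac the values over all 29284 regions were 52.6% [49.7 to 55.5] against 17.5% [17.1 to 18.0]. Without the surplus chromosomes they were 54.0% against 13.5% for H3K4me3 and 49.6% against 13.7% for H3K27ac. The H3K27ac regions with MLL4 of both lines were long, with a median of 7800 bp, where those with MLL4 of KO alone had 4400 bp, those with MLL4 of WT alone 4200 bp and those without MLL4 2800 bp. A longer region has more room for an overlap, and that part was not tested.

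Regions with the marks of active enhancers made up a minor part of each class. Distal active regions were 12.6% [11 to 14.3] of the WT-only, 11.3% [10.8 to 11.9] of the KO-only, 10.4% of the shared WT and 8.13% of the shared KO regions. They lay a median of 15.5 kb from the nearest H3K4me3 region in WT-only and 11.5 kb in KO-only. H3K4me1 of the same line without H3K27ac and H3K4me3 was present at 18.2% [16.3 to 20.2] of the WT-only but 7.56% [7.10 to 8.04] of the KO-only regions. On the 15 other chromosomes these shares were 16% and 7.96%. H3K27me3 did not exclude a region from this class, so regions with that mark are included, and their part was not tested. The WT and KO values use different H3K4me1 lists, and the KO list of that mark is the shorter, with 35041 against 56076 regions. H3K27ac and H3K4me3 came from the WT line alone, so whether KO-only regions carried them in the KO line is not known from these lists.

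About 1 region in 3 of the line-specific classes lay outside all the marks. No region of H3K4me3, H3K27ac, H3K27me3 or of either female H3K4me1 list overlapped 34.2% [33.3 to 35.0] of the KO-only and 33.1% [30.8 to 35.6] of the WT-only regions, against 1.59% and 1.66% of the shared KO and shared WT regions. Most of these were on the chromosomes with a surplus. The shares on the 15 other chromosomes were 19.9% [18.8 to 21.0] and 17.5% [14.7 to 20.6]. These 15 include chromosome 14, where 41.8% of 761 KO regions and 14.8% of 54 WT regions carried no mark. Which of the line-specific classes had the higher share turned with the KO list cut to the WT number, to 12.6% of KO-only and 27.2% of WT-only regions. H3K27me3, the mark that KDM6A removes, overlapped 10.3% [8.80 to 11.9] of the WT-only, 3.95% [3.62 to 4.31] of the KO-only and 1.82% of the shared WT regions. These shares were 5.37%, 1.46% and 1.42% on the 15 other chromosomes. The H3K27me3 list is wide, covering 270.9 Mb against 73.9 Mb for H3K4me3. Whether any of these shares exceeded what that coverage alone would give was not tested. H3K4me3 and H3K27me3 together, the bivalent state, were found at 1.05% of the WT-only and 0.75% of the KO-only regions, and at 1.49% [0.718 to 2.73] and 0.431% [0.273 to 0.646] on the 15 other chromosomes.

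Shared regions held more reads for their length. Reads per 200 bp, the step on which region borders lie, had a median of 7.17 [7.0 to 7.25] in shared KO regions and 6.11 [6.0 to 6.14] in KO-only regions. In the WT list the medians were 6.44 [6.36 to 6.57] and 6.0 [6.0 to 6.11]. Since reads depend on the depth of a library, regions were compared within a list. The median shared region stood at the 77.1st percentile of read density in the KO list and at the 63.4th in the WT list, and the median line-specific region at 48.7 and 44.5. Lengths also differed over all chromosomes. The median was 1600 bp for shared and 1400 bp for line-specific regions in both lists, and 1400 bp for shared KO, shared WT and WT-only against 1200 bp for KO-only on the 15 other chromosomes. Of the shortest and the longest of 5 classes by length, 2.81% and 7.68% were shared in KO. In WT these shares were 27.9% and 37.1%, with 23.7% in the fourth class. The range ran from 200 bp to 18200 bp in the KO list and from 400 bp to 8400 bp in the WT list.

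**Figure D2:**
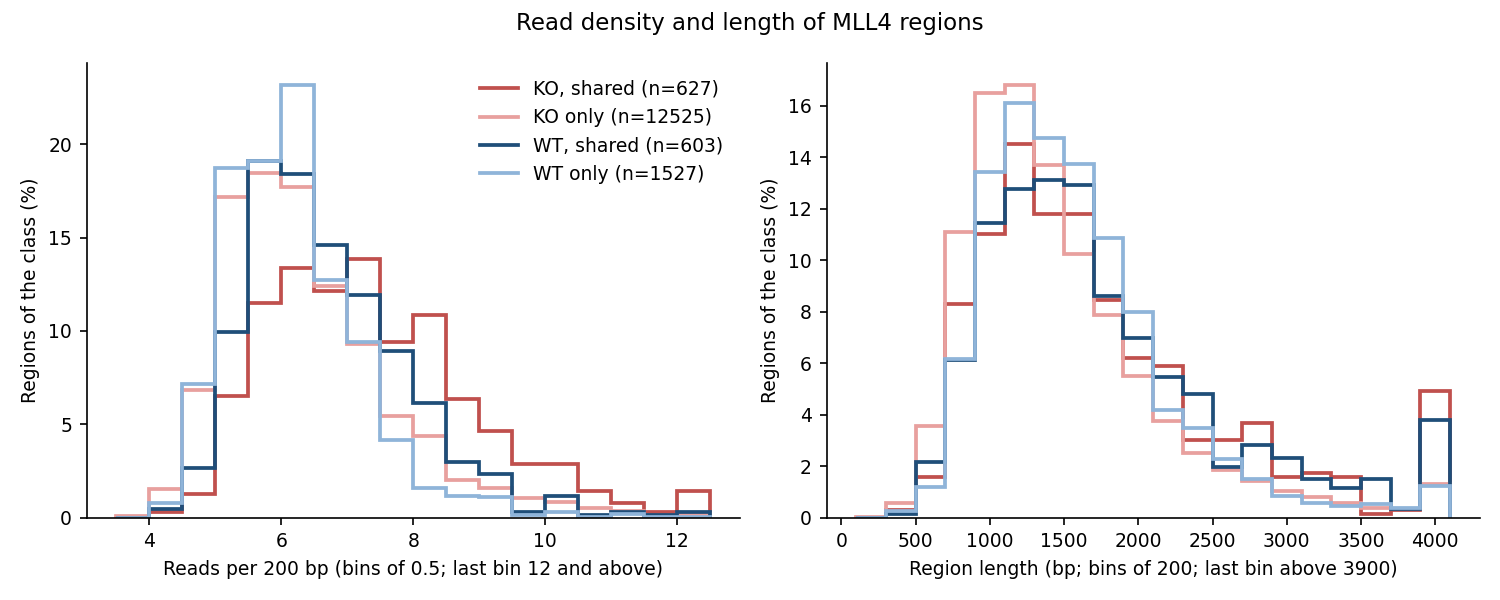
Distribution of reads per 200 bp (left, x axis) and of region length in bp (right, x axis) as percent of each class (y axis). The shared classes lie to the right of the line-specific ones in density, with medians of 7.17 against 6.11 in KO and 6.44 against 6.0 in WT, and their lengths largely overlap.

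Read density and marks moved together. In the KO list H3K4me3 overlapped 18.1% of the class of lowest density and 60.5% of the class of highest density, and the share that was also listed in WT was 1.41% [0.992 to 1.93] and 10.7% [9.56 to 12]. WT regions went from 29.3% to 62.2% with H3K4me3 and from 15.5% [12.2 to 19.3] to 43.2% [38.4 to 48.0] shared. The difference by H3K4me3 was nevertheless present within every density class of both lists. In the class of lowest density 40.0% [31.3 to 49.1] of the WT regions with H3K4me3 were shared, more than the 12.4% [7.76 to 18.5] of WT regions without it in the class of highest density. For KO regions the corresponding values were 4.82% [3.08 to 7.15] and 3.47% [2.44 to 4.77], whose intervals overlap.

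**Figure D3:**
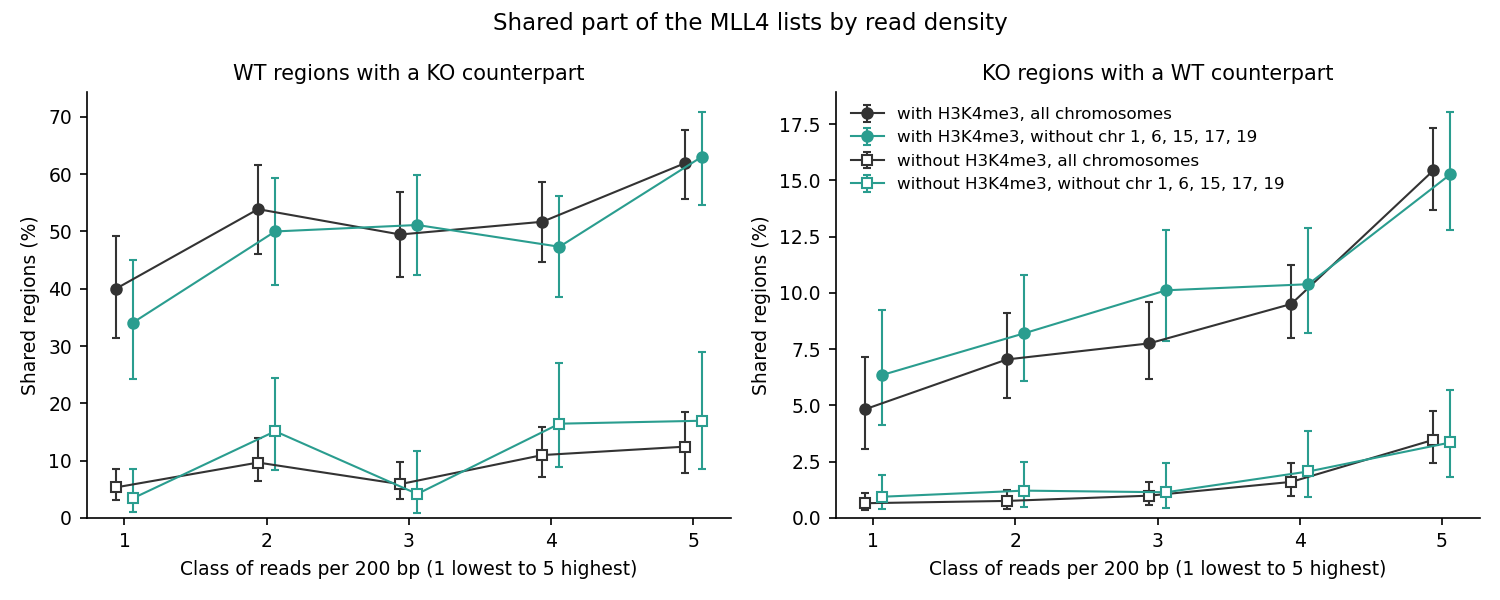
Percent of WT regions (left) and KO regions (right) that were shared (y axis), by class of reads per 200 bp within the list (x axis), for regions with and without H3K4me3; bars are exact 95% intervals over regions. In the left panel regions with H3K4me3 lie between 34.1% and 63.0% and those without it between 3.42% and 16.9%, with or without the chromosomes that hold a surplus.

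Shared regions met closely. Of the 603 shared WT regions, 576 overlapped 1 KO region, 25 overlapped 2 and 2 overlapped 3. The median distance between the midpoints of the partners was 300.0 bp, and a median of 75% of the WT region was covered, with 197 WT regions lying wholly inside KO regions. Read density was only weakly shared between partners. Across the 603 pairs Spearman's rho of reads per 200 bp was 0.22 and that of length 0.24, given as a description across regions of 2 libraries. The leading pair by the summed percentiles of read density was chr4:116345201-116346400 in WT, with 70 reads over 1200 bp or 11.7 per 200 bp, and chr4:116345201-116346000 in KO, with 49 reads or 12.2 per 200 bp. Next came chr5:99671201-99671800 in WT with 30 reads and a KO partner of 91 reads, and chr15:99553001-99556600 in WT with 166 reads and a KO partner of 55 reads. All of the leading 5 carried H3K4me3, H3K27ac and H3K4me1 of all 4 lines. Longest among the shared WT regions was chr19:38097601-38106000, with 280 reads over 8400 bp, and the next, chr19:5844001-5851200, held 309 reads and met a KO region of 384 reads. At chr1:77691801-77692800 lay the leading distal active pair, with 42 reads in WT and 49 in KO over nearly the same bases.

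Regions of 1 line only were mostly far from the other line's regions, and over all chromosomes the distance differed by marks. From WT-only regions to the nearest KO region the median gap between edges was 92.8 kb [82.0 to 107.2], and 27 of the 1527 had a KO region within 1 kb, 11 of them touching one. Near misses of the 1 bp rule were thus 1.77% [1.17 to 2.56] of the class. WT-only regions with H3K4me3 had a median of 47.6 kb [38.4 to 57.2], distal active ones 67.4 kb [34.4 to 90.6], those with H3K4me1 but no H3K27ac or H3K4me3 82.3 kb [67 to 116.2] and those without a mark 207.6 kb [172.0 to 249.2]. As a yardstick, H3K4me3 regions that held no MLL4 of either line were a median of 82.0 kb [79.4 to 84.6] from the nearest KO region. WT-only MLL4 regions at H3K4me3 thus had the shorter median. An H3K4me3 region of the yardstick holds no KO region, whereas a WT-only region may share its H3K4me3 region with one, and that part was not tested. On the 15 other chromosomes the medians of WT-only regions at H3K4me3 and of the yardstick were 54.4 kb and 100.2 kb. The WT-only regions with H3K4me1 but no H3K27ac or H3K4me3 moved to 136.0 kb [67.2 to 235.2] on those chromosomes. Chromosomes 1, 6 and 17, where KO regions are dense, showed no such order. There the 96 WT-only regions had medians of 19.3 kb with H3K4me3, 17.6 kb when distal active and 17.8 kb without a mark, over 26, 24 and 27 regions.

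The KO-only regions lay farther from the WT list, at a median of 451.0 kb [434.0 to 469.6], and 0.655% [0.521 to 0.812] had a WT region within 1 kb. With H3K4me3 the median was 292.1 kb [270.4 to 311.6], and without a mark 790.1 kb [741.6 to 836.4]. H3K4me3 regions without MLL4 were 388.6 kb [376.6 to 401.0] from the nearest WT region. A distance to a list depends on how many regions that list holds. With the KO list cut to the number of WT regions the order turned, with 515.8 kb from WT-only and 301.9 kb from KO-only regions.

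**Figure D4:**
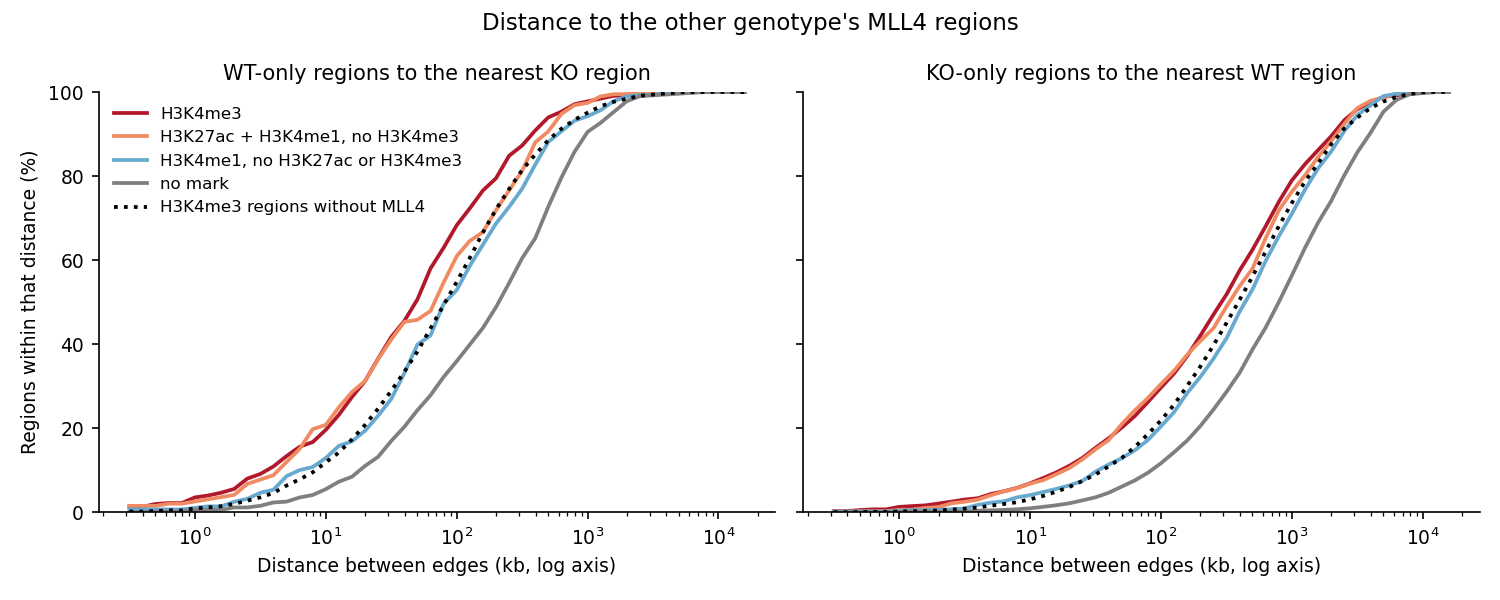
Percent of regions (y axis) that have a region of the other line within the distance on the x axis (kb, log axis), for WT-only regions on the left and KO-only regions on the right, by marks; the dotted line gives H3K4me3 regions without MLL4. Regions with H3K4me3 lie to the left, with medians of 47.6 kb and 292.1 kb, and those without a mark to the right, at 207.6 kb and 790.1 kb.

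The nearest and the farthest WT-only regions differed in their marks. The leading 3 among those touching a KO region were chr19:41573601-41575800 with 70 reads, chr15:36829401-36830600 with 47 and chr14:65962001-65963000 with 43, and all 3 carried H3K27ac and H3K4me1 of all 4 lines. The 3 farthest were all on chromosome X and without a mark, the first at chrX:30531601-30532400, with 26 reads and 7913.2 kb from the nearest KO region. None of the 28 WT regions on chromosome X was shared, and none of the 129 KO regions there. Taking 3 counts of the total as the limit that a count of 0 allows, shares of up to 10.7% and 2.33% are possible, and the exact interval for WT reaches 12.3%.

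By read density, KO-only regions were led by chr1:24619201-24620000, with 100 reads over 800 bp or 25 per 200 bp. It carried no listed mark and was overlapped by a KDM6A region of the KO line, a line labelled as lacking KDM6A. The next 4 were single steps of 200 bp with 15 or 16 reads, where density rests on few reads. Among distal active regions of KO only, chr14:60170801-60171800 led with 60 reads over 1000 bp or 12 per 200 bp and carried H3K4me1 of all 4 lines. WT-only regions were led by chr19:18949401-18949800, with 24 reads over 400 bp or 12 per 200 bp; it carried H3K4me1 of both WT lines and of neither KO line. Among the leading WT-only regions with H3K4me3 the first was chr15:79198401-79199600, with 68 reads over 1200 bp, H3K4me3, H3K27ac and H3K4me1 of all 4 lines, 19.2 kb from a KO region. Longest of the WT-only class was chr15:83238201-83244400, with 204 reads over 6200 bp, also at H3K4me3.

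H3K4me1, the product of the enzyme, was compared between genotypes at each class of MLL4 regions, sorted by H3K4me3 and H3K27ac so that H3K4me1 itself did not enter the sorting. Both sorting marks came from the female WT line, and WT-only regions have MLL4 listed in WT and not in KO. Those regions were thus chosen by signal in WT, which can favour H3K4me1 in WT over KO, and that part was not tested. At WT-only regions with H3K27ac but no H3K4me3, H3K4me1 was listed in female WT at 98.5% [95.6 to 99.7] and in female KO at 51.8% [44.5 to 59.0] of 195 regions. The male lines, which had no part in the MLL4 lists, gave 96.4% [92.8 to 98.5] in WT and 70.3% [63.3 to 76.6] in KO. The difference had the same direction in both pairs of lines, -46.7 percentage points in the female and -26.2 in the male pair. For scale, the 8864 H3K27ac regions with neither H3K4me3 nor MLL4 gave 72.4% and 51.7% in the female and 85.7% and 73.7% in the male lines, differences of -20.7 and -11.9 points. A difference of this sign was thus found at H3K27ac regions without MLL4 as well. Both KO lists of H3K4me1 were shorter than their WT lists, with 49780 against 64247 regions in the male pair, and the part of list length was not tested. Shared WT regions of this kind also had less H3K4me1 in KO, where it was listed at 82.5% [70.9 to 90.9] in the female and 88.9% [78.4 to 95.4] in the male line, against all 63 regions in both WT lines. The female difference there on the 15 other chromosomes was -23.3 points and the male one -10.0 over 30 regions.

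KO-only regions of the same kind had no such gap in the female pair. With H3K27ac but no H3K4me3, H3K4me1 was listed at 88.1% in female WT and 86.3% in female KO, and at 96.0% and 90% in the male lines, over 1643 regions. At H3K4me3 the KO-only class had more H3K4me1 in KO, with 92.3% [91.5 to 93.1] in WT and 95.8% [95.2 to 96.4] in KO of the female pair and 93.3% and 97.7% in the male pair. H3K4me3 regions without MLL4 gave 77.2% and 73.0% in the female and 79.3% and 88.8% in the male pair. The male difference was 4.40 points at KO-only regions and 9.52 points where no MLL4 was listed. These differences start from unlike shares in male WT, 93.3% and 79.3%, so their sizes are not ranked. The WT-only class with H3K4me3 went the other way, with 96.4% and 84.4% in the female pair and 93.8% and 92.0% in the male pair, where the intervals overlap. Shared WT regions with H3K4me3 were covered at 97.0% or more in all 4 lines. On the 15 other chromosomes the female difference at WT-only regions with H3K27ac but no H3K4me3 was -37.8 points and the male one -23.6. H3K4me1 in both WT lines and neither KO line was found at 10.3% [8.80 to 11.9] of the WT-only and 2.70% [2.42 to 3.0] of the KO-only regions (10.9% and 1.57% on the 15 other chromosomes), and the reverse pattern, both KO lines and neither WT line, at 0.458% and 1.1%.

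**Figure D5:**
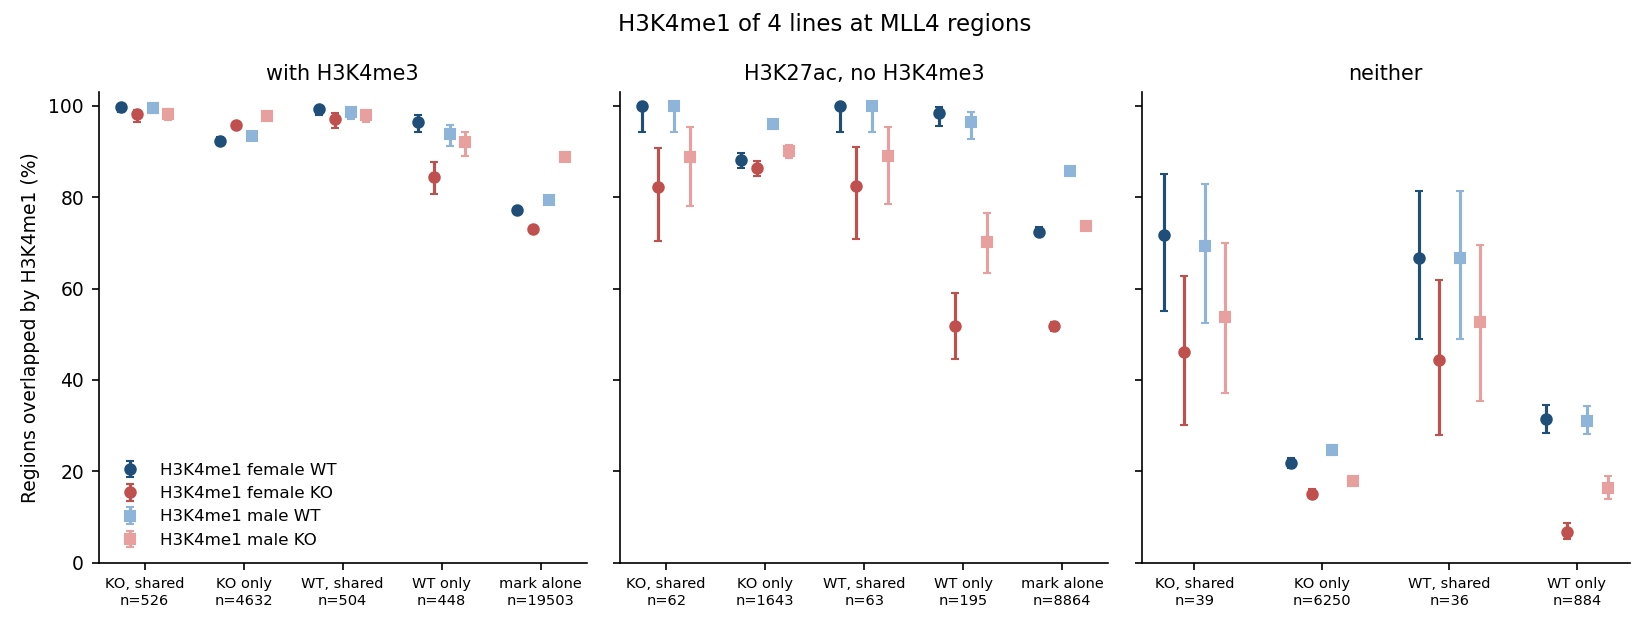
Percent of MLL4 regions overlapped by H3K4me1 of 4 lines (y axis) for each class (x axis), sorted by H3K4me3 and H3K27ac of the WT line, with mark regions lacking MLL4 at the right of the first panels; bars are exact 95% intervals over regions. At WT-only regions with H3K27ac and no H3K4me3 the KO lines stand at 51.8% and 70.3% and the WT lines at 98.5% and 96.4%.

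KDM6A regions were found most often at the shared MLL4 regions. The KDM6A list held 5961 regions in the KO line and 2847 in the WT line, and the part of list length was not tested. KDM6A of WT overlapped 31.0% [27.3 to 34.9] of the shared WT and 12.5% [10.9 to 14.3] of the WT-only regions, and 3.07% [2.77 to 3.38] of the KO-only regions. The KDM6A list of the KO line, where the label gives no KDM6A, overlapped 25.2% [21.8 to 28.9] of the shared WT, 4.19% of the WT-only and 14.9% [14.3 to 15.5] of the KO-only regions. On the 15 other chromosomes KDM6A of KO overlapped 19.8% of the shared WT, 4.18% of the WT-only and 9.25% [8.49 to 10.1] of the KO-only regions, and KDM6A of WT 30.6%, 13.3% and 3.82%. With the MLL4 regions overlapped by the KDM6A list of KO left out, 23.5% of the WT regions and 4.17% of the KO regions were shared.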

How the data were processed

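Chromatin immunoprecipitation was followed by sequencing, with 1 library per group; sample titles gave antibody, sex and genotype, and so the groups. The deposited lists give a chromosome, start, end and whole number per region, read here as the count of reads, from its values and the layout, since no header or label names it. Build mm9, SICER 1 and Bowtie 1.1.2 are named, without roles, per the submitters' processing notes. Threshold, control and depth are not given in the sources used here, so read counts were compared only within a list. The reads inside regions came to 620902 for KO and 108165 for WT. Positions count from 1. No mm9 genome or annotation was used, so no gene or sequence is given. Members, chromosome sets, classes and alternatives were chosen with earlier results of these data known. Named regions were the 5 of highest read density, the 3 longest and the leading one per context in each class, and the 3 nearest and 3 farthest WT-only regions; the text gives the leading ones. Overlaps and distances were computed with scipy 1.17.1, pandas 2.3.3 and numpy 2.4.6 under Python 3.11.15, and plots with matplotlib 3.10.9. Overlap counts equalled those of bedtools 2.31.1 in 20 of 20 pairs of lists, and in data simulated from the 2130 WT regions all 834 planted overlaps were recovered.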

Additional observations from a re-analysis of the deposited data

Results flagged for a closer look

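A pair of comparisons of H3K4me1 between KO and WT went in opposite directions in the female and the male lines; with 1 library per line the difference was not tested. At KO-only MLL4 regions of the 15 other chromosomes, KO minus WT was -0.787 percentage points in the female and 0.712 in the male pair. Both differences were small, and the intervals of KO and WT overlapped in each pair. Over all chromosomes the sign was the same in both pairs, at -2.25 points in the female and -2.58 in the male. At H3K4me3 regions without MLL4, KO minus WT was -4.23 points in the female and 9.52 in the male pair, and -3.23 and 10.2 on the 15 other chromosomes.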

How the results depend on the processing

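Each library was alone in its group, so no replicate could be left out, and depth limits every comparison of list lengths. No paired analysis was possible because each group held 1 library. Of 99 values under alternatives, 43 moved by less than their counting interval and 56 by more. Some of the 43 could not move. Placing the midpoint in the mark leaves the shared parts of the lists and the distances unchanged. Leaving out chromosome X, which has no shared region, leaves H3K4me3 at shared WT regions unchanged. The values that moved by more follow, shares in percent and distances as medians in kb. The cause was not tested. With 50% of a region required to be covered, 24.3 of WT and 3.85 of KO regions were shared, H3K4me3 and no mark were at 35.5 and 35.8 of KO-only regions, and the WT-only distance was 80.4. With the midpoint placed in the mark, H3K4me3 was at 27 of WT-only and 35.0 of KO-only and no mark at 36.4 of KO-only regions. With only the 50% of each list highest in read density, WT-only and KO-only regions had H3K4me3 at 41.3 and 50.2, distal active marks at 14.6 and 15.5, no mark at 24.0 and 19.7, and distances of 128.2 and 813.4. With the KO list cut to the WT number, 10.8 of WT and 10.9 of KO regions were shared, H3K4me3 was at 92.6 of shared WT, 38.9 of WT-only and 62.9 of KO-only, distal active marks at 12.3 of KO-only, no mark at 27.2 of WT-only and 12.6 of KO-only, and the distances were 515.8 and 301.9. On the 15 other chromosomes, 34.5 of WT and 6.37 of KO regions were shared, H3K4me3 was at 88.1, 45.5 and 50.6 of the same classes, distal active marks at 18.7 and 15.2 and no mark at 17.5 and 19.9 of WT-only and KO-only, and the KO-only distance was 421.9. With regions within 5 kb merged, 5.66 of KO regions were shared, and KO-only regions had H3K4me3 at 38.8, distal active marks at 10.03 and a distance of 492.6. A pair of alternatives was chosen after seeing the data. On the 15 other chromosomes with the KO list cut, 13.1 of WT and 13.3 of KO regions were shared, H3K4me3 was at 94.0 of shared WT, 55.1 of WT-only and 74.5 of KO-only, distal active marks at 16.5 and 14.8, no mark at 13.5 and 4.40, and the distances were 608.2 and 312.0. Without MLL4 regions overlapping KDM6A of KO, 23.5 of WT and 4.17 of KO regions were shared, and KO-only regions had H3K4me3 at 35.3, no mark at 35.6 and a distance of 644.7. H3K4me3 at shared WT regions stayed above both line-specific classes, and KO-only above WT-only, in all of these.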

Other observations

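MLL4 regions of the KO line came in runs. Joined within 5 kb, they formed 512 groups of 3 or more regions, holding 15.3% of the list, while the WT list had 4 such groups with 12 regions. Of the KO groups, 386 lay on chromosomes 1, 6 and 17. On the 15 other chromosomes 6.86% of the KO regions and 0.293% of the WT regions were in such groups. The median gap to the next region of the same list on those chromosomes was 26.4 kb in KO and 320.8 kb in WT, and the part of this difference in the counts was not tested.

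The leading groups were neighbours on chromosome 6. At chr6:148721601-148846600, 38 KO regions held 2421 reads over 125.0 kb, and at chr6:148949801-149074400, 37 regions held 2781 reads over 124.6 kb. No WT region of MLL4 lay in either span. Of these regions 28 and 31 carried no listed mark, and 26 and 23 met a KDM6A region listed for KO. Their median read density, 5.97 and 6.29 per 200 bp, was near the 6.11 of all KO-only regions.

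The 4 groups of the WT list differed among themselves. At chr19:38094001-38111200, 3 WT regions held 420 reads, all with H3K4me3, H3K27ac and H3K4me1, and all were shared with KO, as were the 3 at chr8:86715601-86728400. At chr19:34516601-34531400 and chr15:76286401-76294800 none of the 3 regions was shared, 1 and 2 carried H3K4me3, and 0 and 1 carried H3K27ac. Chromosome 14, one of the 15 other chromosomes, held 761 KO regions against 54 of WT, the next highest ratio after chromosomes 1, 6 and 17 at 14.1, and 41.8% of its KO regions carried no mark.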
